A study of Mus musculus with 6 samples.

Results

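The genes described are carriers that move bile acids, organic anions and sterols into and out of hepatocytes. They are a set of 10 genes, chosen with earlier results of these data known. Every probe set whose single platform symbol was one of them was taken: 15 probe sets of 9 genes, out of 22626 probe sets and 12393 genes measured. Abcc4, an export pump of the sinusoidal membrane, had 0 probe sets and is not analysed here. The uptake carriers were Slc10a1, Slco1a1, Slco1a4 and Slco1b2, with 10 probe sets, and the export pumps were Abcb11, Abcc2, Abcg5, Abcg8 and Abcc3, with 5 probe sets.

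The tissue was liver tumour from 6 male mice, each on its own Affymetrix array. In 3 of them the mice were Alb/AEG-1 transgenic, made by injecting a 5.3-kb DNA fragment that carries AEG-1 (astrocyte elevated gene-1, encoded by Mtdh), and in the other 3 they were wild type (WT). Both genotypes had received the hepatocarcinogen N-nitrosodiethylamine once, at 10 µg per g body weight when 14 days old, and tumours were collected 28 weeks after birth, so the WT group is a tumour group and not untreated liver. The labels give CD-1 as the background strain of both groups and B6CBAF1/J matings as the source of the injected embryos. They do not state how many transgenic lines were used. Levels are log2 values on the deposited RMA scale, on which 1 unit is a 2-fold change, and every difference is Alb/AEG-1 minus WT.

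Hepatocytes take bile acids from portal blood across the sinusoidal membrane, chiefly through the sodium-coupled carrier encoded by Slc10a1 and through organic anion transporters of the Slco family. They pump them into bile across the canalicular membrane through the ATP-driven pump encoded by Abcb11, while Abcc2 exports conjugated anions and the Abcg5 and Abcg8 proteins together export sterols. Pumps of the sinusoidal membrane, such as Abcc3 and Abcc4, return bile acids and conjugates to blood. The nuclear receptor FXR (gene Nr1h4) senses bile acids and induces Abcb11.

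RefSeq promoter windows (GRCm38.p6, 250 bases before to 50 after a start site) were found for 9 of the 10 genes. The letters of the consensus FXR site, the inverted repeat AGGTCANTGACCT, were searched on both strands with at most 1 mismatch. They were present in 2 of the 12 windows of these genes, those of Abcb11 and Slco1b2, and in 0.0822% of 32851 windows of that length. Both stretches are shown because they hold the only matches in these windows. Among the probe sets described below, Abcb11 had the difference nearest 0 and 1427826_a_at of Slco1b2 the smallest p. Capitals mark the repeat, and positions are counted from 1 at its first base, with the consensus base first. Abcb11 (chr2:69342659-69342687, minus strand) has the substitution T4C, and Slco1b2 (chr6:141629422-141629450, plus strand) has T4A.
Abcb11: tggactttAGGCCATTGACCTataagcaa
Slco1b2: atttgtgtAGGACAGTGACCTgaagagat

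Abcg5 and Abcg8 are transcribed away from each other on chromosome 17, and the 109 bases between their RefSeq start sites (chr17:84683012-84683120, given on the plus strand, GRCm38.p6) are shown because both genes had their highest value on the same array. Capitals mark the GATA-factor letters AGATAA, read here on the minus strand. This stretch holds 2 copies. Over the 300-base windows, the letters were present at least once in 2 of the 12 windows of these genes and in 11.2% of all windows. These 2 windows, of Abcg5 and Abcg8, overlap on the chromosome and hold the same copies, with a further copy past the Abcg5 start site. They are thus the same DNA counted for both genes.
Abcg5 and Abcg8: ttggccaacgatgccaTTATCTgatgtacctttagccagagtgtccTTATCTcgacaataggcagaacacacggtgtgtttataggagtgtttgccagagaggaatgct

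A letter match describes the sequence only. The pair of direct repeats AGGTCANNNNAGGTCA, searched for LXR with at most 1 mismatch on both strands, was present in 0 of the 12 windows and in 0.25% of all windows. The NRF2 letters TGACNNNGC were present in 3 of the 12 windows, those of Abcc2 and both windows of Abcc4, and in 12.4% of all windows.

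**Figure D1:**
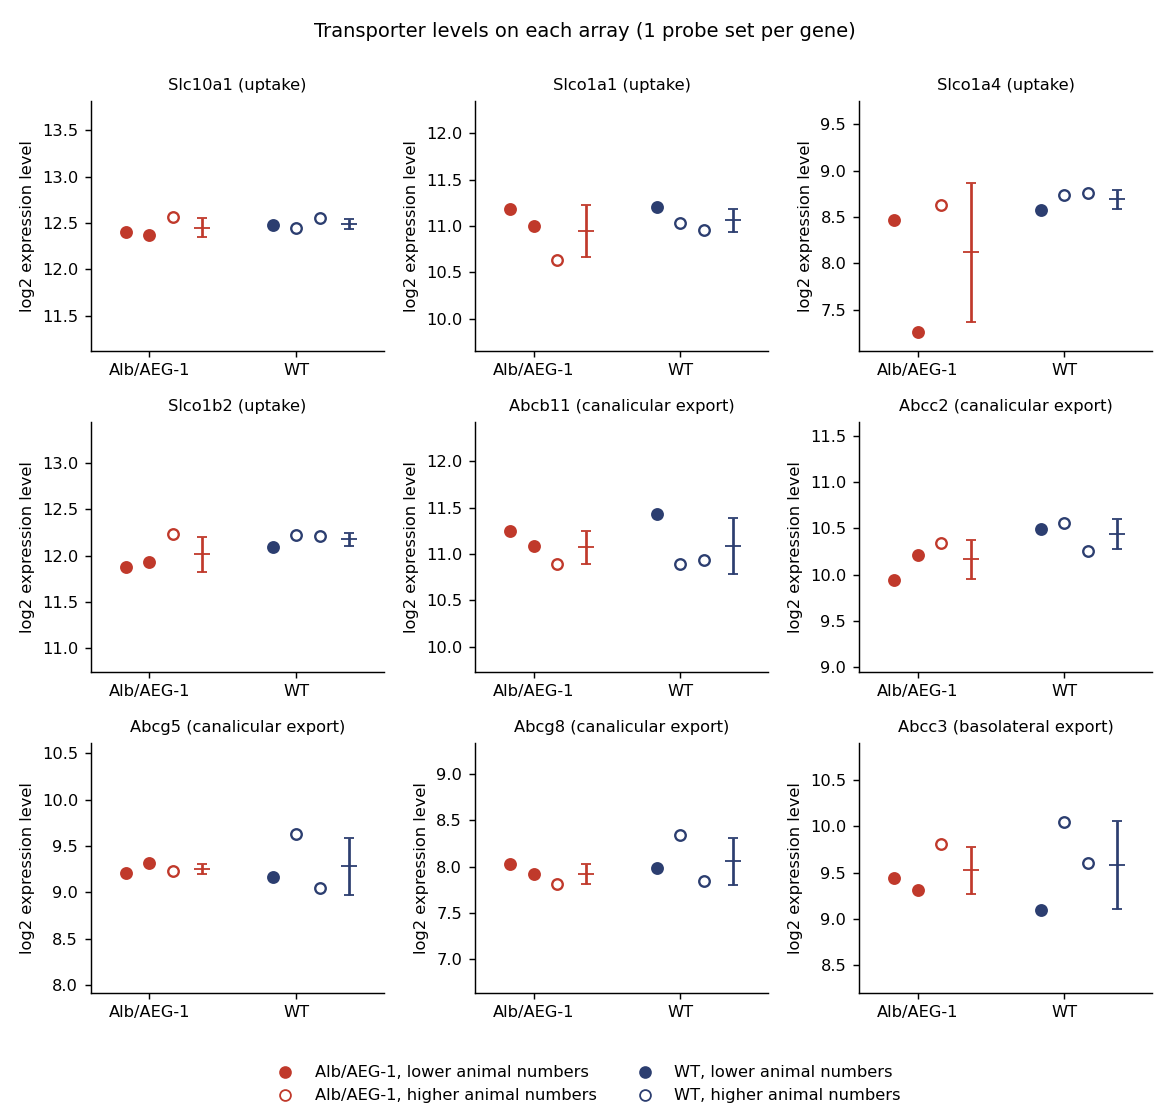
Log2 expression level (vertical axis, each panel spanning the same number of log2 units) of the 9 measured transporter genes on each array, with the 3 Alb/AEG-1 tumours left and the 3 WT tumours right. Circles are arrays, filled for the lower and open for the higher animal numbers, and bars give the mean and SD. The groups overlap in all 9 panels, and Slco1a4 has 1 Alb/AEG-1 array at 7.25, below the other 5.

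Of the 15 transporter probe sets, 0 passed the test, and the differences ran from -0.57 for Slco1a4, with a wide interval, to -0.01 for Abcb11. The lowest adjusted p among them was 0.596 (limma, Benjamini-Hochberg over the whole array). On that array 0.00442% of probe sets passed upwards and 0% downwards. At an unadjusted p below 0.05 there were 2 of the 15, both probe sets of Slco1b2 and both lower in Alb/AEG-1 tumours, against 4.38% of all probe sets called downwards and 3.68% upwards. The count was 5 without Alb/AEG-1 replicate 3 and 1 without Alb/AEG-1 replicate 2, without WT replicate 1 or without WT replicate 2. For these refits the share of all probe sets called was not computed, so the counts have no background beside them. The same 2 probe sets had groups that did not overlap, with all Alb/AEG-1 values below all WT values, as had 8.38% of all probe sets, and 0 of the 15 lay entirely above, as had 6.28%.

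All 15 differences were below 0, with a median of -0.16 over the probe sets against -0.01 over all probe sets, of which 53.2% were below 0. The 15 share the same 6 arrays and 6 of them duplicate a gene, so they are not independent. The genes were also chosen with earlier results of these data known, so the shared direction is a description and not a test. The 10 uptake probe sets had a median difference of -0.18 and the 5 export probe sets one of -0.06. Whether uptake and export differed from each other was not tested. The 95% interval lay within a 2-fold change in either direction for 14 of the 15, and Slco1a4 was the exception.

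**Figure D2:**
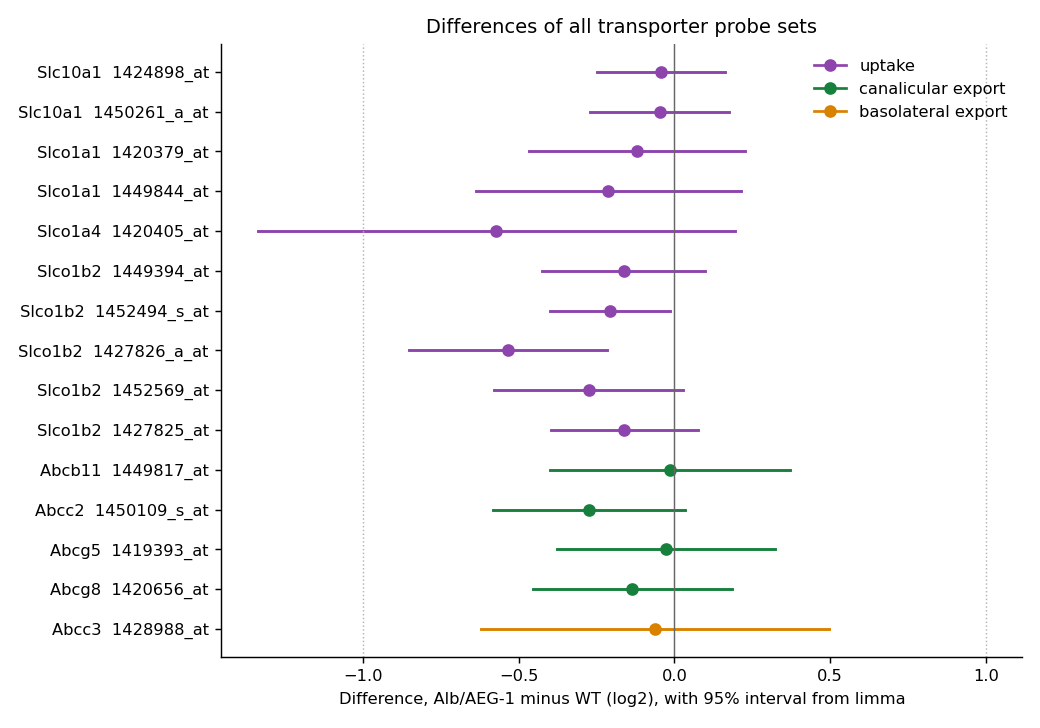
Difference in log2 level, Alb/AEG-1 minus WT (horizontal axis), of all 15 transporter probe sets (rows), with the 95% interval from limma (3 arrays per group). Dotted lines mark a 2-fold change. All points lie left of 0, and 2 intervals, both of Slco1b2, do not include 0.

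The clearest values belonged to Slco1b2, which encodes the liver-specific organic anion transporter Oatp1b2, an uptake carrier for unconjugated bile acids, bilirubin conjugates and drugs. Probe set 1427826_a_at was at 8.18, 7.92 and 8.47 in Alb/AEG-1 tumours, against 8.73, 8.75 and 8.69 in WT tumours. Every Alb/AEG-1 value lay below every WT value, and the WT arrays lay close together (mean 8.19 ± 0.27 in Alb/AEG-1 and 8.72 ± 0.03 in WT, SD, n = 3 each). The difference was -0.53 ± 0.14 log2 (SE), with a 95% interval from -0.85 to -0.22 (limma, unadjusted p = 0.00506, adjusted p = 0.596), a fold of 0.69. It was largest in size without Alb/AEG-1 replicate 3 (-0.67) and smallest without Alb/AEG-1 replicate 2 (-0.40).

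Probe set 1452494_s_at of Slco1b2, of a type (s_at) that can cross-bind to relatives, was at 11.81, 11.69 and 11.87 in Alb/AEG-1 tumours, against 11.98, 12.02 and 11.98 in WT tumours. These groups did not overlap either, at a smaller distance. The difference was -0.21 ± 0.08 log2 (limma, unadjusted p = 0.0393, adjusted p = 0.614), with an interval from -0.40 to -0.01. Its unadjusted p lay above 0.05 with median centring (0.0557) and with any 1 array other than Alb/AEG-1 replicate 3 left out (0.0707 to 0.123). With that array left out it was 0.0329, and over the 6 such fits the difference lay between -0.25 and -0.16.

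The Slco1b2 probe set with the highest mean, 1449394_at, was at 11.88, 11.93 and 12.23 in Alb/AEG-1 tumours, against 12.10, 12.23 and 12.21 in WT tumours. Here Alb/AEG-1 replicate 3 lay above all WT arrays, so the groups overlapped, and the difference was -0.16 ± 0.11 log2 (limma, adjusted p = 0.691). The remaining probe sets, 1452569_at and 1427825_at, were dim, with WT means of 4.49 and 3.93 against a median of 5.83 over all probe sets. They differed by -0.28 ± 0.13 and -0.16 ± 0.10, and both overlapped. All 5 probe sets of the gene thus had a difference below 0, and they differed in size from -0.16 to -0.53.

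**Figure D3:**
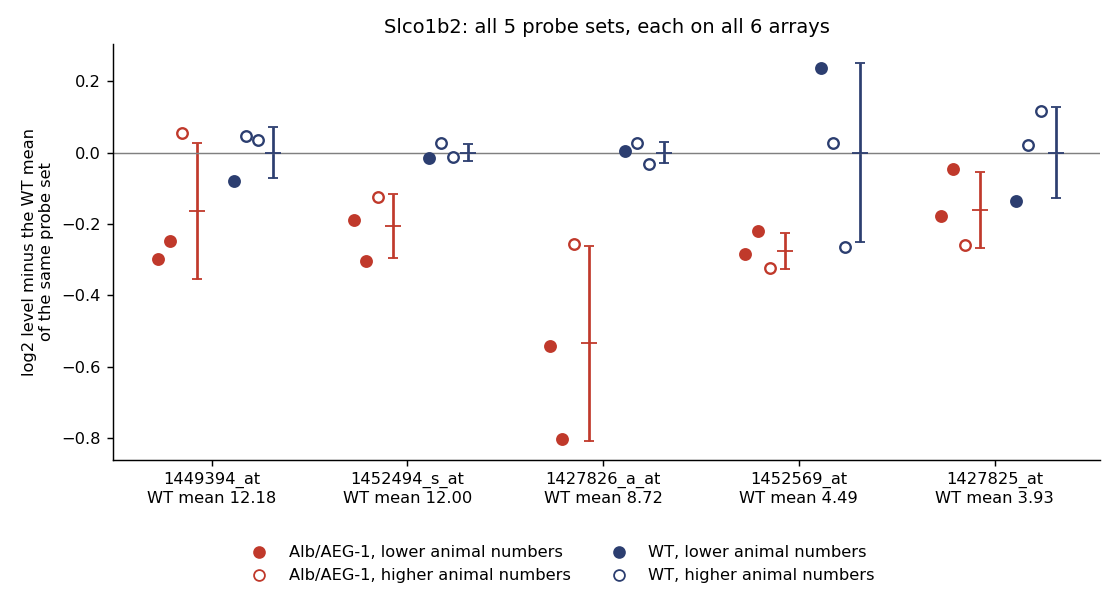
Log2 level minus the WT mean of the same probe set (vertical axis) for the 5 Slco1b2 probe sets on all 6 arrays, Alb/AEG-1 left and WT right within each. Circles are arrays, filled for the lower and open for the higher animal numbers, and bars give the mean and SD (n = 3). The groups do not overlap in 1452494_s_at and 1427826_a_at.

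Slco1a4 encodes Oatp1a4, an uptake carrier for bile acids and cardiac glycosides that is inducible through the receptor PXR. Its probe set was at 8.47, 7.25 and 8.63 in Alb/AEG-1 tumours, against 8.57, 8.74 and 8.76 in WT tumours. Alb/AEG-1 replicate 2 lay below all other arrays, while Alb/AEG-1 replicate 3 lay within the WT values. The difference of -0.57 ± 0.33 log2, the largest in size of the 15, came with an SD of 0.75 in Alb/AEG-1 and 0.10 in WT tumours (limma, adjusted p = 0.655). Its interval ran from -1.34 to 0.19. Leaving out Alb/AEG-1 replicate 2 brought the difference to -0.14.

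Slco1a1 encodes Oatp1a1, an uptake carrier known in mice as more abundant in male than in female liver. By its brighter probe set, 1420379_at, it was at 11.19, 11.00 and 10.63 in Alb/AEG-1 tumours, against 11.20, 11.03 and 10.96 in WT tumours. Alb/AEG-1 replicate 3 was the lowest, and the other 5 arrays lay close together. The difference was -0.12 ± 0.15 log2 (limma, adjusted p = 0.814). Leaving out Alb/AEG-1 replicate 3 turned it to 0.03.

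The other Slco1a1 probe set, 1449844_at, was at 10.38, 9.82 and 9.63 in Alb/AEG-1 tumours, against 10.24, 10.16 and 10.06 in WT tumours. Again the groups overlapped and the spread was wider in Alb/AEG-1 tumours, with an SD of 0.39 against 0.09. The difference was -0.21 ± 0.18 log2 (adjusted p = 0.74). It was -0.06 without Alb/AEG-1 replicate 3 and -0.43 without Alb/AEG-1 replicate 1.

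Slc10a1 encodes NTCP, the sodium-coupled carrier that takes up conjugated bile acids. It was at 12.40, 12.37 and 12.57 in Alb/AEG-1 tumours, against 12.48, 12.45 and 12.55 in WT tumours. The groups overlapped, and the difference of -0.04 ± 0.09 log2 (limma, adjusted p = 0.891) had an interval from -0.25 to 0.16, which corresponds to -15.9% to 11.8% on the linear scale. The second probe set, 1450261_a_at, was at 11.84, 11.86 and 12.09, against 11.98, 11.93 and 12.02 in WT tumours, a difference of -0.05 ± 0.10. These were the tightest intervals among the uptake genes other than Slco1b2.

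Among the canalicular pumps, Abcc2 had the difference of smallest p. Abcc2 encodes MRP2, which exports bilirubin glucuronides and glutathione conjugates into bile. It was at 9.94, 10.21 and 10.34 in Alb/AEG-1 tumours, against 10.50, 10.56 and 10.26 in WT tumours, by a probe set of the cross-binding type s_at. Only WT replicate 3 and Alb/AEG-1 replicate 3 crossed the other group, and the difference was -0.28 ± 0.13 log2 (limma, unadjusted p = 0.0727, adjusted p = 0.63; interval -0.58 to 0.03). It was -0.16 without Alb/AEG-1 replicate 1 and -0.37 without WT replicate 3.

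Over the 6 arrays the genes whose pattern was most like that of Abcc2, out of 12384 with 1 probe set each, were Syce2, Slc24a1 and Lsp1, with Pearson's r of 0.987, 0.98 and 0.977. With so few arrays, 102 genes (0.824%) had an r above 0.9. The genes differed by -0.19, -0.11 and -0.17 log2 and none of the 3 passed the test (limma, adjusted p from 0.637 to 0.709).

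Abcb11 encodes BSEP, the pump that sets the rate of bile acid secretion. It was at 11.25, 11.08 and 10.89 in Alb/AEG-1 tumours, against 11.43, 10.89 and 10.93 in WT tumours. The groups covered nearly the same values, and the difference of -0.01 ± 0.17 log2 (limma, adjusted p = 0.984) was the smallest in size of the 15, with an interval from -0.40 to 0.37. The sign turned to 0.16 without WT replicate 1, the array with the highest value.

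Abcg5 and Abcg8 encode the partners of a heterodimer that secretes cholesterol and plant sterols into bile. Abcg5 was at 9.21, 9.31 and 9.23 in Alb/AEG-1 tumours, against 9.17, 9.63 and 9.04 in WT tumours. Abcg8 was at 8.03, 7.92 and 7.82 in Alb/AEG-1 tumours, against 7.98, 8.34 and 7.85 in WT tumours. In both genes WT replicate 2 was the highest of the 6 arrays, and the Alb/AEG-1 values lay within or beside the WT range.

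The differences were -0.03 ± 0.15 log2 for Abcg5 (limma, adjusted p = 0.961) and -0.13 ± 0.14 for Abcg8 (adjusted p = 0.777). Without WT replicate 2 they were 0.14 for Abcg5 and 0.0069 for Abcg8. The distance between the probe sets on one array, Abcg5 minus Abcg8, averaged 1.33 ± 0.13 in Alb/AEG-1 and 1.22 ± 0.05 in WT tumours (SD, n = 3 each). It ranged from 1.18 to 1.42 over the 6 arrays and, being set by 2 different probe sets, gives no ratio of the transcripts.

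Abcc3 encodes MRP3, a sinusoidal pump for glucuronides and bile acids that is inducible in cholestasis. It was at 9.44, 9.32 and 9.81 in Alb/AEG-1 tumours, against 9.10, 10.05 and 9.61 in WT tumours. The difference was -0.06 ± 0.24 log2 (limma, adjusted p = 0.947), with an interval from -0.62 to 0.50 and an SD of 0.48 within WT. The WT arrays alone spanned 0.95 log2 and enclosed all Alb/AEG-1 values. The difference ranged from -0.31 without WT replicate 1 to 0.17 without WT replicate 2.

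The titles give each array an animal number, and these fall into a lower range (Alb/AEG-1 replicates 1 and 2 and WT replicate 1) and a higher range (Alb/AEG-1 replicate 3 and WT replicates 2 and 3). The labels do not say what the numbers stand for. Abcc3 lay between 9.10 and 9.44 on the 3 arrays of the lower range and between 9.61 and 10.05 on those of the higher range, with no overlap. Abcb11 also did not overlap between the ranges, at 11.08 to 11.43 in the lower and 10.89 to 10.93 in the higher range. In both genes the spread within each genotype thus ran along the animal numbers. Slco1a4 (7.25 to 8.57 in the lower and 8.63 to 8.76 in the higher range) and Slco1b2 probe set 1449394_at (11.88 to 12.10 and 12.21 to 12.23) did not overlap between the ranges either, which makes 4 of the 15 probe sets, against 15.8% of all probe sets.

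Within the lower range 12 of the 15 differences were below 0, and within the higher range 12 of 15. They rest on 2 against 1 and 1 against 2 arrays, all of them part of the fit above. The share of all probe sets below 0 within each range was not computed, so these counts are no separate repeat of the direction. Slco1b2 probe set 1427826_a_at differed by -0.68 in the lower range and -0.25 in the higher, and 1452494_s_at by -0.23 and -0.13. Probe set 1449394_at of the same gene differed by -0.19 and 0.01. With the range as a term in limma, 1427826_a_at differed by -0.47 (adjusted p = 0.728), Slco1a4 by -0.42 and Slco1a1 by -0.23 (1420379_at). The count at an unadjusted p below 0.05 was again 2 with this term, but not of the same probe sets: 1452494_s_at missed it (-0.18, limma, unadjusted p = 0.0819) and the dim 1452569_at of Slco1b2 reached it (-0.35, unadjusted p = 0.0246). The share of all probe sets called with this term was not computed. Abcc3 turned to 0.13 with the term, and Abcb11 was at -0.15.

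**Figure D4:**
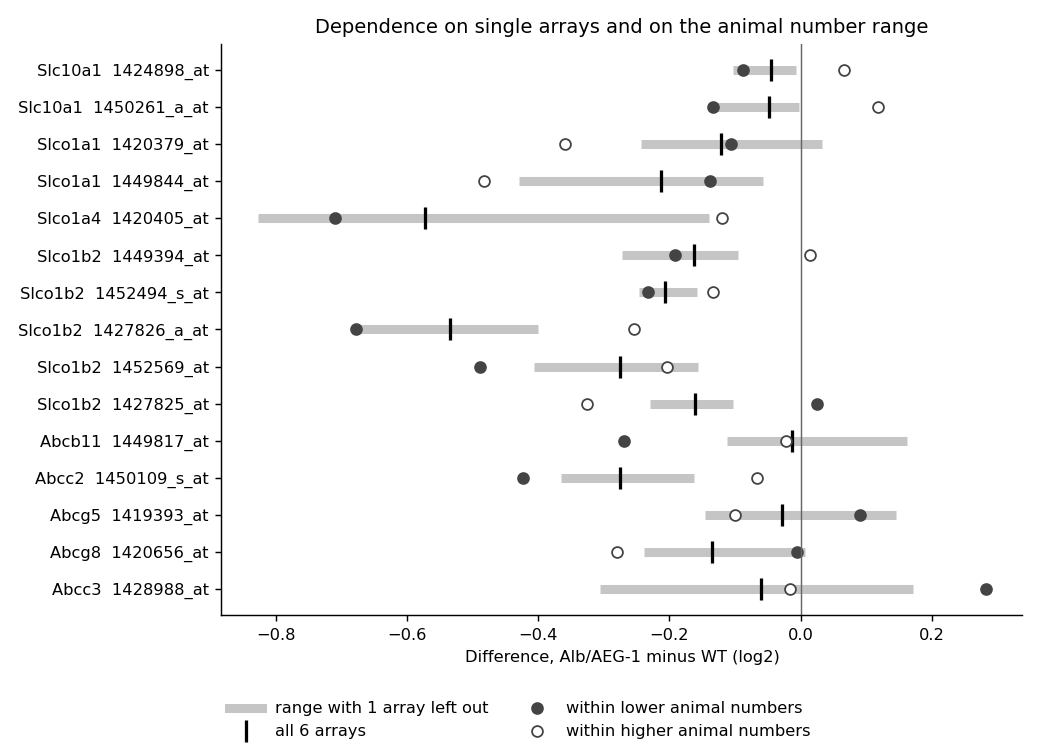
Difference in log2 level, Alb/AEG-1 minus WT (horizontal axis), of the 15 transporter probe sets (rows). Grey bars span the values with 1 array left out, black ticks use all 6 arrays, and circles give the difference within the lower (filled) and the higher (open) animal numbers, which rest on 2 against 1 and 1 against 2 arrays. The grey bars of Slco1b2, Slco1a4, Abcc2 and Slc10a1 stay below 0, as does that of 1 of the 2 Slco1a1 probe sets. Those of Abcb11, Abcg5, Abcg8, Abcc3 and the other Slco1a1 probe set reach across 0.

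The tissue carried hepatocyte markers at high levels, with a list mean of 13.40, 13.07 and 13.28 in Alb/AEG-1 tumours and 13.25, 13.34 and 13.43 in WT tumours over 11 of 14 listed genes. The 13 measured macrophage markers (of 14) all had a difference above 0, and 4 were called higher at an unadjusted p below 0.05, a level at which 3.86% of all genes (1 probe set each) were called upwards and 4.47% downwards. Their mean level was 7.34, 7.70 and 7.94 in Alb/AEG-1 tumours, against 7.41, 6.97 and 7.15 in WT tumours. Cholangiocyte markers, which matter here because bile duct cells also express Abcc3, had a mean level of 5.70, 5.82 and 5.54 in Alb/AEG-1 and 5.74, 5.56 and 5.51 in WT tumours over 11 of 16 genes. The part of cell composition in the Slco1b2 values was not tested, and in bulk tumour fewer cells of a type cannot be told apart from less RNA per cell. Mtdh itself was at 9.37 ± 0.21 in Alb/AEG-1 and 9.17 ± 0.15 in WT tumours (SD, n = 3; 0.20 ± 0.13 log2, limma, adjusted p = 0.677). This is the brightest of 6 Mtdh probe sets and the one with the largest difference, and the other 5 lay between -0.09 and 0.19, with 2 of them below 0. The labels do not give the species of the transgene, so this does not check the genotype.

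Median differences of the remaining marker lists were 0.02 for endothelial (10 of 10 genes measured), 0.04 for stellate and fibroblast (10 of 10), -0.11 for T and NK (11 of 13), 0.19 for B and plasma (5 of 7), -0.03 for neutrophil (7 of 9) and 0.16 for ileal enterocyte genes (7 of 7). At an unadjusted p below 0.05, 2 ileal enterocyte genes (Apoc2 and Vil1), 1 B and plasma gene (Jchain) and 1 endothelial gene (Lyve1) were called higher. At that level 2 neutrophil genes (Mpo and Csf3r), 1 T and NK gene (Gzmb) and 1 cholangiocyte gene (Aqp1) were called lower, and 0 hepatocyte, stellate and fibroblast genes were called. Apoc2, an apolipoprotein gene that hepatocytes also express, differed by 1.28 ± 0.29 log2. In all 9 marker lists 0 genes passed the adjusted test by limma.

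Other carriers of the hepatocyte surface had differences in both directions. Counts in what follows again use 1 probe set per gene and an unadjusted p below 0.05, with the shares of all genes given above, and in each of the 10 lists 0 genes passed after adjustment by limma. Among 7 measured genes of the list of other uptake carriers (of 10 listed, with relatives of the members such as Slco3a1 among them), 0 reached that unadjusted level and the median difference was -0.03. The anion transporter gene Slc22a7 differed by -0.38 ± 0.17 log2, the epoxide hydrolase gene Ephx1 by 0.15 ± 0.11, Slco3a1 by -0.13 ± 0.11 and Slc22a18 by -0.10 ± 0.09. Several genes named here and below did not overlap between the animal number ranges, as 15.8% of all probe sets did not. Slc22a7 was one, at 9.04 to 9.31 in the lower and 9.34 to 9.82 in the higher range. With the range as a term in limma it differed by -0.26.

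Of 9 measured canalicular carriers (of 10), 2 were called lower and 0 higher, with a median of -0.01. They were the copper pump gene Atp7b (-0.27 ± 0.10) and Slc47a1, a proton-coupled exporter of organic cations (-0.33 ± 0.13). The anion exchanger gene Slc4a2 differed by 0.11 ± 0.08 and the water channel gene Aqp8 by 0.58 ± 0.54. Aqp8 lay at 10.73 to 11.34 in the lower and 9.09 to 10.03 in the higher animal number range. It differed by 0.11 with the range as a term in limma. All 4 measured basolateral efflux carriers (of 5) had a difference below 0, with 0 called and a median of -0.17. Slc51a, a subunit of an organic solute transporter, differed by -0.19 ± 0.08 on a dim probe set of the type s_at, Abcc5 by -0.21 ± 0.10, Abcc1 by -0.15 ± 0.13 and Abcc6 by -0.07 ± 0.12. Abcc5, Abcc1 and Abcc6 did not overlap between the animal number ranges. With the range as a term in limma they differed by -0.16, -0.06 and 0.005, and Slc51a by -0.21.

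Sterol and lipoprotein carriers, 11 measured of 13, had 0 called and a median of -0.05. Osbpl1a, a sterol-binding protein gene, differed by -0.16 ± 0.11, the receptor gene Lrp1 by -0.14 ± 0.10, the cholesterol exporter gene Abca1 by 0.08 ± 0.08 and the phospholipid transfer gene Pltp by 0.27 ± 0.30. In bile acid synthesis and conjugation, 12 measured of 13, 1 gene was called higher and 0 lower, with a median of -0.10. Acox2, a peroxisomal oxidase of bile acid side chains, was the one called, at 0.24 ± 0.09. The reductase gene Akr1d1 differed by -0.45 ± 0.20, the sterol 12-alpha-hydroxylase gene Cyp8b1 by -0.31 ± 0.15 and the sterol 27-hydroxylase gene Cyp27a1 by -0.16 ± 0.08. Akr1d1 lay at 9.34 to 9.76 in the lower and 9.99 to 10.31 in the higher animal number range. It overlapped between genotypes and differed by -0.28 with the range as a term in limma.

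**Figure D5:**
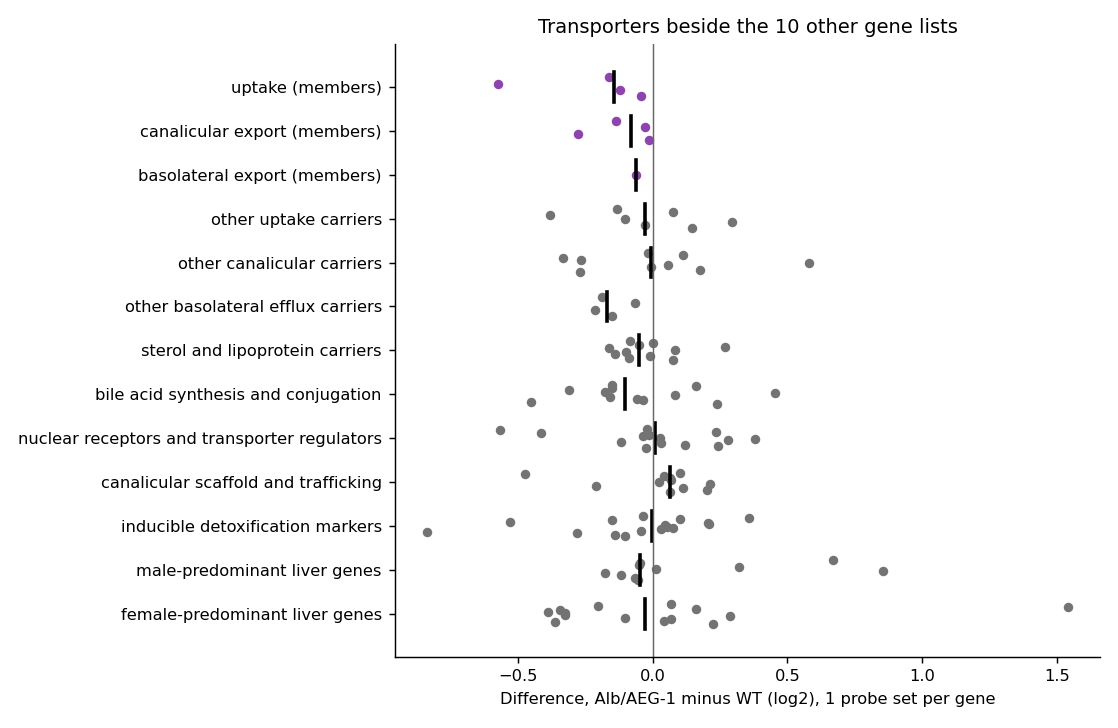
Difference in log2 level, Alb/AEG-1 minus WT (horizontal axis), for each measured gene (points, 1 probe set per gene) of the transporter groups (purple) and of the 10 other lists (grey: carriers, bile acid synthesis, regulators, scaffold, inducible and sex-dependent genes), with list medians as black bars. The medians of the 10 other lists lie between -0.17 and 0.07, and those of the uptake, canalicular and basolateral transporters at -0.14, -0.08 and -0.06.

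Of 14 measured regulators of these transporters (of 16), 1 was called higher and 1 lower, with a median of 0.01. Ppara, the fatty acid sensing receptor, differed by -0.56 ± 0.16 and Nfe2l2, which encodes the NRF2 factor that induces Abcc2 and Abcc3, by 0.28 ± 0.10. The LRH-1 gene Nr5a2 differed by 0.23 ± 0.11 and the FGF19-family co-receptor gene Klb by -0.12 ± 0.08. Nr1h4, the FXR gene, given because Abcb11 is its target, was at 9.25 ± 0.13 in Alb/AEG-1 and 9.29 ± 0.25 in WT tumours, and the FXR target Nr0b2 at 8.93 ± 0.83 in Alb/AEG-1 and 8.55 ± 0.74 in WT tumours (SD, n = 3). The difference of Nr1h4 was -0.04 ± 0.14 log2 and that of Nr0b2 0.38 ± 0.47. With Abcb11 at -0.01, the receptor and both targets overlapped between genotypes. Nr0b2 lay at 8.82 to 9.81 in the lower and 7.83 to 8.52 in the higher animal number range. Nr1h4 did not overlap between the ranges either, and was higher in the higher range. With the range as a term in limma, Nr0b2 differed by -0.001 and Nr1h4 by 0.07.

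Among 11 measured genes that anchor or sort canalicular proteins (of 14), 1 was called lower and 0 higher, with a median of 0.07. Slc9a3r1, whose PDZ scaffold protein binds Abcc2, differed by -0.47 ± 0.19, the linker gene Ezr by -0.21 ± 0.10, its relative Msn by 0.21 ± 0.09 and the tight junction gene Cldn3 by 0.11 ± 0.10. Slc9a3r1 lay at 10.64 to 10.99 in the lower and 11.18 to 11.60 in the higher animal number range. It overlapped between genotypes and differed by -0.31 with the range as a term in limma. The Ezr probe set is of the cross-binding type x_at. Of 16 measured genes inducible by xenobiotic or oxidative signals (of 17), 1 was called lower and 0 higher, with a median of -0.002. Cyp1a2 was the one called (-0.28 ± 0.10), Gstm1 differed by 0.21 ± 0.10, Srxn1 by 0.36 ± 0.18 and Cyp1a1 by -0.14 ± 0.10.

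Because Slco1a1 depends on sex in mice, lists of genes that differ between male and female liver were set beside it. Of 10 measured male-predominant genes (of 16), 0 were called and the median was -0.05. Hsd3b5 differed by 0.32 ± 0.26, Ugt2b38 by 0.67 ± 0.62, Cyp4a12a by -0.12 ± 0.13 and Elovl3 by 0.85 ± 0.95. Hsd3b5 lay at 11.78 to 12.05 in the lower and 11.17 to 11.27 in the higher animal number range. Elovl3 lay at 11.50 to 11.70 in the lower and 8.04 to 10.12 in the higher range. With the range as a term in limma, Hsd3b5 differed by 0.09 and Elovl3 by 0.04. Of 14 measured female-predominant genes (of 20), 1 was called higher and 1 lower, with a median of -0.03. These were Prom1 (1.54 ± 0.47), which also marks progenitor cells, and Cyp3a44 (-0.32 ± 0.09), while Fmo2 differed by -0.34 ± 0.16 and Abcd2 by 0.23 ± 0.12. The WT means of Prom1 and Cyp3a44 were 4.17 and 5.18, below the median of 5.83 over all probe sets.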

How the data were processed

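The deposited values are log2 expression levels, made by the authors with RMA (background correction, quantile normalization, probe summary) per the submitters' processing notes, which give no version. RNA came from Trizol extracts, 5 µg each, per the labels' protocols. The table held 22690 probe sets, of which 64 controls were left out. Platform symbols were updated through gene IDs against RefSeq (GRCm38.p6): 20380 probe sets had 1 symbol, 691 several and 1555 none, and no gene was named from several. Where 1 value per gene was needed, the brightest probe set (mean of 6 arrays) was used.

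Groups came from the genotype labels, with replicates numbered in accession order. The titles give 6 animal numbers, so arrays were taken as separate animals. Differences (Alb/AEG-1 minus WT, 3 arrays each) were fitted by lmFit and eBayes of limma 3.58.1 (R 4.3.3, 2-sided, 7.53 total degrees of freedom) and adjusted by Benjamini-Hochberg over 22626 probe sets at 0.05. The fit was tested on simulated data, with added changes larger than any member difference. That run does not show whether differences of the size seen here would be found. The number of arrays limits the precision. Array pairs correlated with r from 0.987 to 0.993, and array medians differed by at most 0.0289 log2.

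Members and lists were chosen with earlier results of these data known. Named genes were all members, the 4 of smallest p of each of the 10 pathway lists and the 3 most like Abcc2. Nr1h4, Nr0b2, Mtdh and the marker genes were named beside them after their values were seen.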

Additional observations from a re-analysis of the deposited data

How the results depend on the processing

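The number of member probe sets (genes, where probe sets were averaged) past an adjusted p of 0.05 was 0 in all 15 alternatives run with limma (each array left out, quantile normalization, an intensity trend, robust moderation, median centring, array weights, dim or x_at and s_at probe sets left out, a term for the animal number range, and the mean of all probe sets of a gene), with a lowest adjusted p of 0.301. The number lower at an unadjusted p below 0.05 was 2, and 1 with median centring, 1 with x_at and s_at probe sets left out, and 1 to 5 with an array left out. The number with a difference below 0 was 15 and ranged from 12 to 15 with an array left out. Shares over all probe sets were not computed for these alternatives. Of the differences, 9 changed sign, in 5 probe sets. Abcc3 was 0.13 with a term for the animal number range and Abcb11 0.027 with array weights. With an array left out, Abcg5 ranged from -0.15 to 0.14, Slco1a1 (1420379_at) from -0.24 to 0.032, Abcg8 from -0.24 to 0.0069, Abcc3 from -0.31 to 0.17 and Abcb11 from -0.11 to 0.16. The values were already log2, so the alternatives for linear values were not run. No paired analysis was possible because the labels give no replicate numbers shared by the groups. Signal over background was not analysed here, so how far the dim Slco1b2 probe sets lie above it is unknown.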
